A study of Mus musculus with 8 samples.

Results

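The kinesin gene family was followed in mouse lung after removal of 1 lung. Its members were the genes whose single symbol in the array annotation is Kif followed by a digit, each read from the brightest of its probe sets (largest mean of the 8 arrays). There were 37 such genes among the 18193 genes on the array, with 99 probe sets between them, and every one of the 37 is described here. The rule for members used no difference between groups, but members and roles were chosen with earlier results of these data known. By textbook role 12 were mitotic kinesins, 13 transport kinesins, 5 kinesins of cilia or hedgehog signalling, and 7 had other or mixed roles.

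The lung RNA came from adult female C57BL/6 mice, 10 to 12 weeks old, hybridised to 8 Affymetrix arrays of the whole mouse genome. In the 4 PNY arrays the left lung had been tied off at the hilum and removed (left unilateral pneumonectomy). In the 4 SHAM arrays the chest was opened in the same way, kept open for 5 minutes and closed with no lung removed. Each surgery has 1 array per time point (6 hours, then days 1, 3 and 7), and each array holds lung pooled from 8 mice, so no value carries the spread between mice. All mice of both groups had the same anaesthesia, ventilation, saline and ampicillin, with buprenorphine as needed. The 9 markers of lung cells are bright on every array, with a summed level from 16.75 to 16.85 in PNY and from 16.74 to 16.79 in SHAM. Among the other cell types checked, the 7 thymocyte markers (only 1 of them above the median level of all probe sets) have a summed level of 10.95 on the PNY array of 1 day. They lie between 7.83 and 8.47 on the other arrays. That array is therefore also left out below. The 8 striated muscle markers are low on the SHAM array of 7 days, at 11.59 against 12.15 to 12.54 elsewhere. The 4 measured erythroid markers range from 8.03 to 9.02 in PNY and from 8.88 to 9.70 in SHAM.

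Kinesins are motor proteins that turn ATP into movement along microtubules or into shortening of their ends. The mitotic members are made mainly by cells about to divide, where they build the spindle, move the chromosomes and finish cytokinesis. The transport members carry vesicles, organelles and protein complexes in cells of every kind, and the kinesin-2 motors also supply the cilium. In the lung, where most cells rest and the airways are lined by ciliated cells, both kinds of motor are in use.

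By brightest probe set, most mitotic kinesins were higher in PNY than in SHAM at 3 days (9 of 12) and all of them at 7 days. By the same measure no transport kinesin differed by as much as 1.5-fold at any time point. Of the 12 mitotic genes 2 passed the test over all time points by their brightest probe set, and 3 more by a dimmer one, described further on. The median PNY minus SHAM difference of the 12 mitotic kinesins, in log2, stood at -0.05 after 6 hours, 0.08 on day 1, 0.39 on day 3 and 1.15 on day 7. For the 13 transport kinesins it was 0.23, 0.01, 0.01 and -0.05 at the same times. Over all 18193 genes the median was 0.02 at 6 hours and at 1 day, 0.01 at 3 days and -0.0013 at 7 days. At 7 days all 12 mitotic kinesins lay above SHAM, from 0.09 for Kif14 to 1.68 for Kif20a. Of the 13 transport kinesins 5 did, and of all 18193 genes 9025 did. In whole lung, more dividing cells and more kinesin RNA in each of them cannot be told apart.

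**Figure D1:**
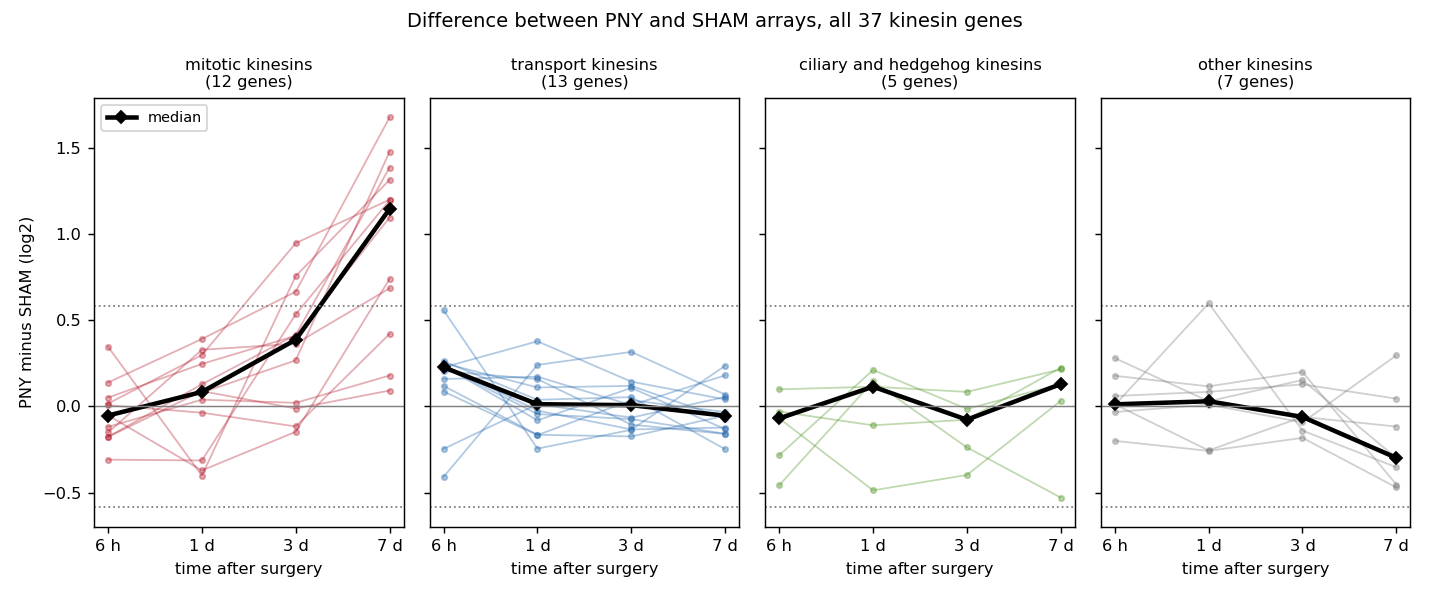
PNY minus SHAM difference (log2) of each of the 37 kinesin genes at 6 hours, 1, 3 and 7 days, 1 panel per role; thin lines are genes, the black line is the group's median, and dotted lines mark a fold change of 1.5 either way. The mitotic median reaches 1.15 at 7 days; the transport genes lie within the dotted lines at all 4 time points.

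The stretches of DNA at the starts of the mitotic genes show what several of them share beside their levels. In many genes used late in the cell cycle, a cell cycle homology region (TTTGAA) lies close to the start of transcription, often downstream of CCAAT boxes, the letters bound by the factor NF-Y. The stretches below run from 100 bases before the annotated start to 30 bases after it, read from the RefSeq promoter table (build GRCm38.p6), 5′ to 3′ on the strand of the gene. Capitals mark TTTGAA and CCAAT on either strand, which read TTCAAA and ATTGG where they lie on the other strand. The first 6 are mitotic kinesins with a 7-day difference above 1; the last pair, Kif3b and Kif1c, are transport kinesins shown for contrast.
Kif11: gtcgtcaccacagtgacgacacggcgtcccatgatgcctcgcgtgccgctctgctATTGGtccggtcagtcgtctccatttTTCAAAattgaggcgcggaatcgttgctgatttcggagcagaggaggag
Kif23: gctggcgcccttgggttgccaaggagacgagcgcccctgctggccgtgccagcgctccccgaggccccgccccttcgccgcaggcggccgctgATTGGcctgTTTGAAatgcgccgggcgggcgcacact
Kif4: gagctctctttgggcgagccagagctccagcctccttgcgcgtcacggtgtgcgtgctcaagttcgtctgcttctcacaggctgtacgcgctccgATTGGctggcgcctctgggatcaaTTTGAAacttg
Kif18b: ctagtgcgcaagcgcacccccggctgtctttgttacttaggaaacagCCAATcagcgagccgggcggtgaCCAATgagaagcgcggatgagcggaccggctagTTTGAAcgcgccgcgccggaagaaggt
Kif22: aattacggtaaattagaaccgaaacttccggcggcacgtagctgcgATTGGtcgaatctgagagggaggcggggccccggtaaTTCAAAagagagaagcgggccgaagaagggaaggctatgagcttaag
Kif20b: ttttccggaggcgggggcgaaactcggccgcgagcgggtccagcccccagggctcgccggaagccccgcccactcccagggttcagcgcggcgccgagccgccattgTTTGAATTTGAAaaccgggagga
Kif3b: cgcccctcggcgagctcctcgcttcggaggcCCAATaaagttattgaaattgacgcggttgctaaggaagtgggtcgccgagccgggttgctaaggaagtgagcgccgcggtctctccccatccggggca
Kif1c: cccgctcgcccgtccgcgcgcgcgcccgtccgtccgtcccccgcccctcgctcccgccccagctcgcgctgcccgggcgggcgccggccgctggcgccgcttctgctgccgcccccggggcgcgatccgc

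The Kif11 stretch lies at chr19:37376282-37376411 on the plus strand and that of Kif20b at chr19:34922258-34922387, also plus. Kif23 is at chr9:61946770-61946899 on the minus strand, Kif18b at chr11:102925095-102925224 on the minus strand and Kif22 at chr7:127042391-127042520 on the minus strand. Kif4 lies at chrX:100625965-100626094, Kif3b at chr2:153291316-153291445 and Kif1c at chr11:70700448-70700577, all 3 on the plus strand. Each stretch holds the proximal promoter and the first 30 bases of the first exon by the RefSeq start.

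In 5 of the 6 mitotic stretches CCAAT letters lie upstream of TTTGAA letters. In Kif11 the CCAAT letters begin at -45 and the TTTGAA letters at -19, counted from the start, whose first transcribed base is 1. In Kif23 they begin at -7 and at 3. Kif20b holds TTTGAA at 8 and again at 14, and no CCAAT. Kif3b holds CCAAT at -69 and no TTTGAA, and Kif1c holds neither.

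Over the whole windows of 300 bases, from 250 before to 50 after the start, 31 of the 37 members had an entry in the table. Kif5a, Kif5b, Kif13b, Kif20a, Kif21b and Kif28 had none and were not analysed for motifs. TTTGAA on either strand stood in 9 of the 11 mitotic windows and in 0 of the 10 transport windows, against 18.1% of the windows of all 27025 genes in the table. The mitotic windows without it were those of Kif2b and Kif18a. From 100 bases before to 30 after the start, the counts were 7 of 11 mitotic windows and 7.24% of all genes. CCAAT was in 7 of the 11 mitotic windows, 3 of the 10 transport windows and 37.9% of all windows. The E2F core TTGGCGC, on either strand, was in Kif15 and Kif18a among the mitotic windows and in 2.54% of all windows; it overlapped no TTTGAA match. Elsewhere in the family TTTGAA stood only in the windows of Kif26b and Kif27. These are matches of letters only.

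**Figure D2:**
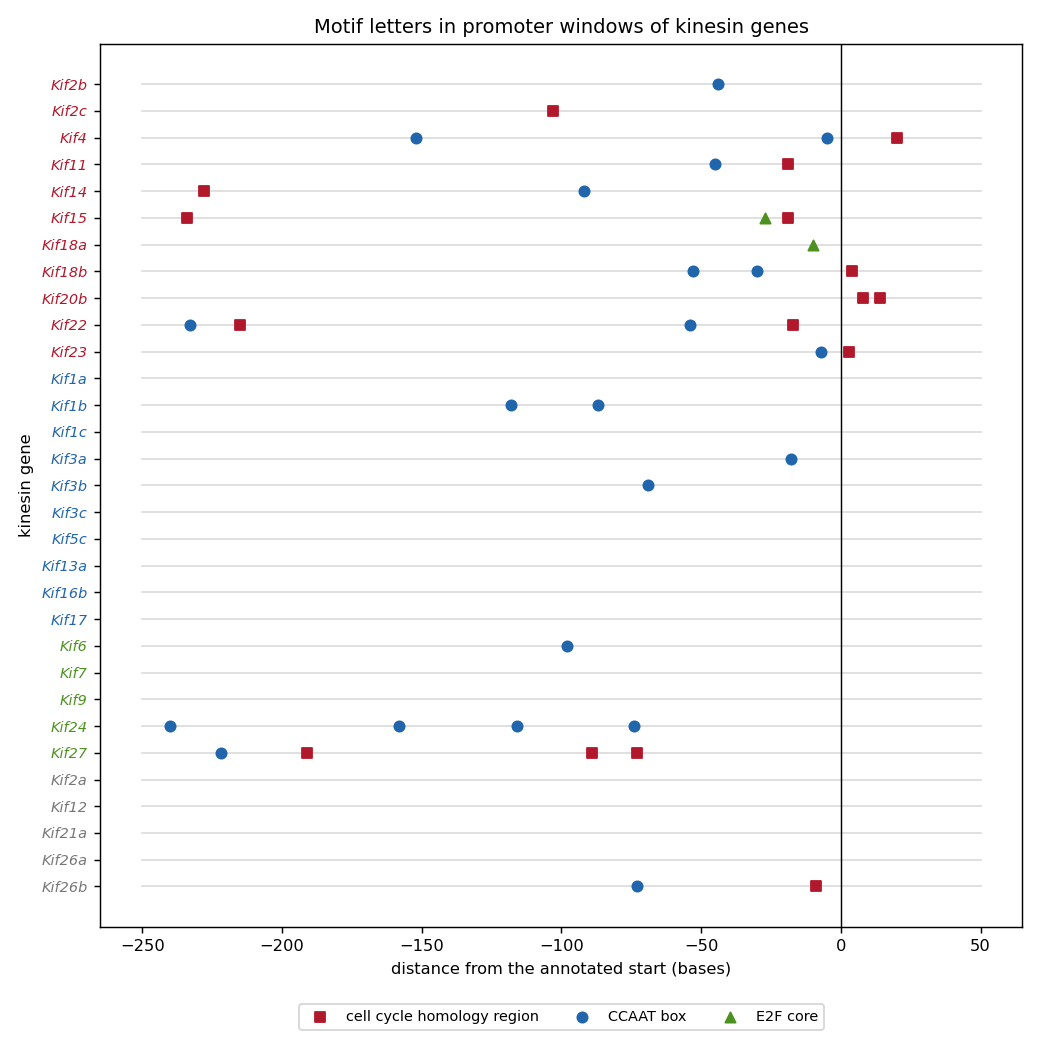
First base of each match to the letters of the cell cycle homology region (squares), the CCAAT box (circles) and the E2F core (triangles), by distance in bases from the annotated start, in the 31 kinesin genes with a promoter window. Names are coloured by role, mitotic in red at the top and transport in blue under them. The squares stand in 9 mitotic windows and in no transport window.

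Across all time points 2 kinesins, each read from its brightest probe set, passed the study's threshold for a consistent difference, a rank product P-value under 0.001 together with a 1.5-fold change or more. Both were mitotic, and both were higher in PNY. Of all 99 kinesin probe sets 5 passed, 1 each of Kif11, Kif20a, Kif20b, Kif22 and Kif23, all higher in PNY. Among all 45037 probe sets tested, 142 passed as higher in PNY and 25 as lower. Over all genes, each by its brightest probe set, 0.506% passed in this direction and 0.0605% in the other, in which no kinesin passed. The rank product takes the 4 time points as replicates, so it favours genes that differ the same way throughout.

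Kif20a moves the chromosomal passenger complex to the middle of the anaphase spindle. Its log2 level in PNY was 5.66 after 6 hours, 5.63 on day 1, 6.38 on day 3 and 7.70 on day 7. In SHAM it was 5.53, 5.24, 5.72 and 6.03 in the same order, the order kept for all 4-value series here. PNY was above SHAM at each of the 4 time points, but the groups overlap, since the SHAM array of 7 days lies above the PNY arrays of 6 hours and 1 day. The mean difference was 0.72 ± 0.67 (SD over 4 time points), a fold change of 1.64, with a rank product permutation P of 0.000367. A two-sided exact permutation test of the PNY and SHAM arrays gave p = 0.2 for Kif20a. At 7 days alone PNY was 3.20-fold SHAM.

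Kif20b works at the midzone and midbody at the end of division. It read 4.75, 5.26, 5.98 and 6.79 in PNY and 4.73, 4.96, 5.03 and 5.59 in SHAM. The difference was near 0 at 6 hours and grew to 0.95 at 3 days and 1.20 at 7 days. Its mean was 0.62 ± 0.55, a fold change of 1.53, with a rank product permutation P of 0.000543. For Kif20b the two-sided exact permutation test gave p = 0.229. Its 3 dimmer probe sets, at levels of 2.30 to 3.57, gave means of 0.13, 0.10 and 0.04, and averaged over all 4 probe sets Kif20b differed by 0.22 and did not pass.

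Both calls depend on particular arrays. Kif20a no longer passed when the 3-day PNY array (mean difference 0.71), the 7-day PNY array (0.27) or the 1-day SHAM array (0.59) was left out. Kif20b was lost without any of these (0.52, 0.25 and 0.58) and also without the SHAM array of 6 hours (0.50) or that of 3 days (0.60). With the 1-day PNY array left out, where the thymocyte markers are high, both passed. With the percentage of false positives held under 0.05 in place of the P-value, neither passed.

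Kif23, the motor of the centralspindlin complex that holds the midzone together, read 6.90, 6.77, 7.70 and 8.33 in PNY and 6.56, 7.17, 6.94 and 7.02 in SHAM. At 1 day it was lower in PNY, and at 3 and 7 days its PNY levels lay above all SHAM levels. Its mean difference of 0.50 ± 0.72 did not pass (permutation P = 0.00174). It passed with the PNY array of 6 hours left out (0.68) or that of 1 day (0.72). A dimmer probe set of Kif23 differed by -0.82 at 6 hours and 0.50 at 1 day, each opposite in sign to the brighter one, and by 1.08 and 1.74 at 3 and 7 days; with a mean of 0.62 it passed.

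Kif22 and Kif4 are chromokinesins, motors that sit on chromosome arms. Kif22 read 7.52, 7.64, 8.14 and 9.03 in PNY and 7.46, 7.39, 7.73 and 7.93 in SHAM. Kif4, which also works with Prc1 at the midzone, read 5.62, 5.68, 6.15 and 7.24 in PNY and 5.80, 5.55, 5.73 and 5.85 in SHAM. In both genes the PNY arrays of 3 and 7 days are the highest of the 8. Their mean differences, 0.45 ± 0.45 and 0.44 ± 0.68, did not pass (permutation P = 0.00543 and 0.00889). A dimmer probe set of Kif22 did pass, with a mean difference of 0.73 and differences of 0.01, 0.61, 0.97 and 1.35 in time order.

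Kif11 pushes the spindle poles apart at the start of mitosis, and Kif15 can stand in for it. Kif11 read 5.61, 5.34, 6.00 and 7.01 in PNY and 5.67, 5.26, 5.73 and 5.54 in SHAM. Most of its mean difference of 0.44 ± 0.70 comes from 7 days, where PNY was 2.78-fold SHAM. A dimmer Kif11 probe set passed, with differences of 0.38, 0.51, 1.07 and 1.72 and a mean of 0.92. Kif15 read 5.74, 5.43, 5.39 and 5.56 in PNY and 5.73, 5.46, 5.51 and 5.14 in SHAM. Its 7-day difference of 0.42 came with the lowest SHAM level of the 4.

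The kinesin-8 motors Kif18a and Kif18b shorten or restrain microtubule plus ends. Kif18b read 6.09, 5.82, 6.62 and 7.29 in PNY and 6.39, 6.13, 6.09 and 6.09 in SHAM. It thus differed by -0.31 at both early time points and by 0.53 and 1.20 at 3 and 7 days. Kif18a read 5.78, 5.84, 5.97 and 6.64 in PNY and 5.93, 5.51, 5.60 and 5.95 in SHAM, with 7-day fold 1.61. Only its PNY array of 7 days stands clearly above the SHAM arrays.

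Kif2c and Kif2b are kinesin-13 proteins that take microtubules apart at centromeres, and Kif14 acts in cytokinesis. By its brightest probe set Kif2c was 6.41, 5.89, 6.33 and 6.94 in PNY and 6.46, 6.26, 6.48 and 6.20 in SHAM. There it lay below SHAM until the 7-day array, where it was 1.67-fold higher. Its dimmer probe sets had larger means than the 0.04 of the brightest, 0.24 and 0.42, and 1 more at a low level gave -0.05. Those with means of 0.24 and 0.42 were already above SHAM at 3 days, by 0.38 and 0.61, while the low one differed by -0.25. Kif2b stayed between 3.19 and 3.37 and Kif14 between 2.69 and 2.89 over all arrays. Both are far below the median of 5.92 over all probe sets, and their 7-day differences of 0.18 and 0.09 are the least of the mitotic group.

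**Figure D3:**
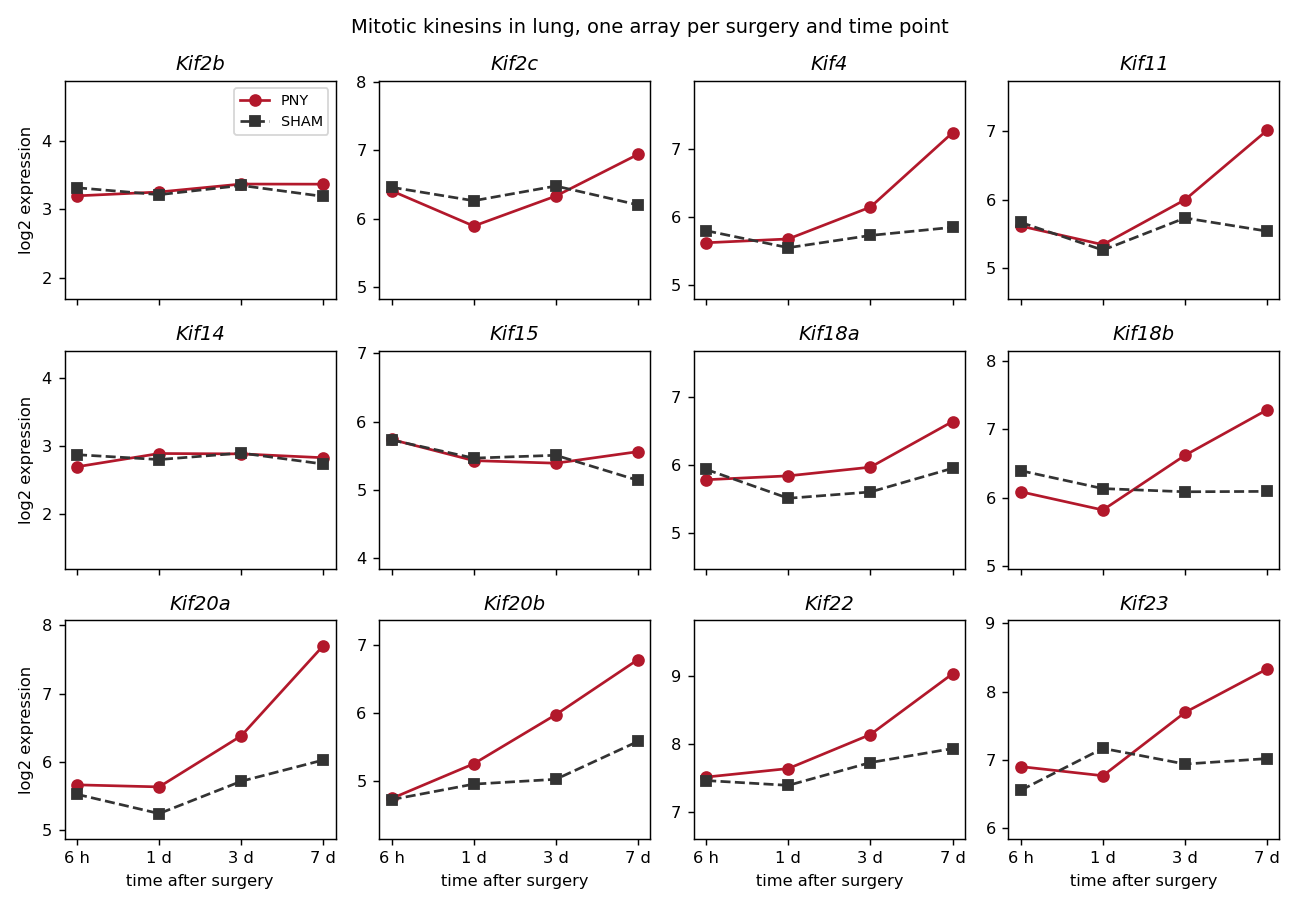
Log2 expression of the 12 mitotic kinesins against time after surgery, with 1 array per point; red circles are PNY and black squares SHAM, and every panel spans the same number of log2 units. Kif20a reaches 7.70 on the PNY array of 7 days against 6.03 in SHAM, while Kif2b and Kif14 stay flat and low.

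Counted by size at the brightest probe set of each gene, 9 kinesins were at least 1.5-fold higher in PNY at 7 days. All of them were mitotic, against 1.98% of all genes. Of these, 7 were at least 2-fold higher: Kif4, Kif11, Kif18b, Kif20a, Kif20b, Kif22 and Kif23. At 3 days 3 kinesins were past 1.5-fold (Kif20a, Kif20b and Kif23), against 1.14% of all genes. At 1 day it was Kif21b alone, against 1.88%, and at 6 hours none, against 0.682%. No kinesin was at least 1.5-fold lower at any time point, where the shares of all genes, in time order, were 1.04%, 1.09%, 0.511% and 1.48%. With 1 array per surgery at a time point these counts have no test.

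For the 7 mitotic genes past 2-fold at 7 days, the gain from the 6-hour value was larger in PNY than in SHAM. These genes were picked by their 7-day difference and differed by -0.31 to 0.35 at 6 hours. The choice of genes therefore fixed this outcome, which is no further support. From 6 hours to 7 days the level in PNY was up by 2.04 for Kif20a, 2.04 for Kif20b, 1.61 for Kif4, 1.51 for Kif22, 1.43 for Kif23, 1.40 for Kif11 and 1.20 for Kif18b. In SHAM over the same time Kif20b differed by 0.85, Kif20a by 0.50, Kif22 by 0.47, Kif23 by 0.46, Kif4 by 0.05, Kif11 by -0.13 and Kif18b by -0.30. Of the other 5, Kif15 was lower at 7 days in both surgeries, with -0.18 in PNY and -0.59 in SHAM. Kif18a differed by 0.85 and 0.02, Kif2c by 0.53 and -0.26, Kif2b by 0.17 and -0.13 and Kif14 by 0.13 and -0.14, PNY first. Without both 7-day arrays the median difference of the mitotic kinesins was 0.11, against 0.37 over all 4 time points. Without the PNY array of 7 days it was 0.09.

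The question of whether the surgeries differed more at the later time points was put to limma, setting 3 and 7 days against 6 hours and 1 day. No kinesin passed at an adjusted p of 0.05, nor did any gene (0%). At an unadjusted p under 0.05 there were 2 kinesins, Kif18b and Kif23, against 2.46% of all genes. Kif18b had the largest estimate, 1.18 ± 0.31 (SE), and that of Kif23 was 1.06 ± 0.35. The median estimate was 0.73 over the mitotic kinesins, -0.11 over the transport kinesins and -0.02 over all genes. In the plain comparison of PNY with SHAM limma also called no kinesin and no gene (0%). There, 1 kinesin, Kif21a, was under an unadjusted p of 0.05, against 2.17% of all genes. With time point as a block, which pairs the arrays by time, 5 kinesins were (Kif18a, Kif20a, Kif20b, Kif21a and Kif22), against 5.9% of all genes, and again none after adjustment.

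None of the 37 Kif members had all 4 PNY arrays above all 4 SHAM arrays, against 0.857% of all genes, or all below, against 0.726%. There were 7 kinesins higher in PNY at each time point (Kif2a, Kif3b, Kif5c, Kif20a, Kif20b, Kif22 and Kif24), against 9.36% of all genes. There was 1 lower at each, Kif21a, against 5.94%.

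The transport kinesins gave small differences of either sign. By brightest probe set none was past 1.5-fold at any time point, and none passed the rank product. Dimmer probe sets of Kif13a were past it at 1 day (0.70 and 0.62), and a dimmer one of Kif1c at 6 hours (0.59). At 6 hours 11 of 13 transport kinesins lay above SHAM with a median of 0.23, against 9684 of all 18193 genes. Of the transport partners described further on 18 of 25 did at 6 hours, and of the tubulins 9 of 11. At 7 days 5 of 13 transport kinesins lay above SHAM, against 9025 of all genes.

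Kif5b, the heavy chain of conventional kinesin found in most cells, read 10.83, 10.95, 10.71 and 10.57 in PNY and 10.62, 10.79, 10.81 and 10.73 in SHAM. Its mean difference was 0.02 ± 0.18, with a permutation P of 0.531 for a higher level in PNY. The neuronal heavy chains were dimmer, Kif5a between 4.32 and 5.06 and Kif5c between 3.86 and 4.38. Among the brightest probe sets, Kif5a had the largest transport difference of all, 0.56 at 6 hours, and -0.24 at 1 day. Kif5c was above SHAM at all 4 time points (0.23, 0.38, 0.14 and 0.04). A dimmer probe set of Kif5c went the other way, with a mean of -0.28.

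The kinesin-3 motors Kif1b and Kif1c carry vesicles, and Kif1b also mitochondria. Kif1c read 10.57, 10.64, 10.48 and 10.22 in PNY and 10.30, 10.60, 10.42 and 10.47 in SHAM, so that its difference went from 0.26 at 6 hours to -0.25 at 7 days. Kif1b read 10.23, 9.98, 9.78 and 9.87 in PNY and 9.99, 10.06, 9.67 and 10.00 in SHAM. Their mean differences were 0.03 ± 0.17 for Kif1b and 0.03 ± 0.21 for Kif1c. Kif13a, which carries recycling endosomes, differed by 0.10 ± 0.13. The remaining kinesin-3 motors, Kif1a, Kif13b and Kif16b, had means of -0.06, -0.01 and -0.07, and the dendritic kinesin-2 Kif17 had 0.05 with -0.41 at 6 hours.

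Kif3a and Kif3b form, with Kifap3, the kinesin-2 motor of intraflagellar transport. Kif3b read 8.21, 7.90, 8.03 and 8.21 in PNY and 8.05, 7.73, 8.02 and 8.03 in SHAM, above SHAM throughout but by no more than 0.18. Kif3a read 7.78, 8.12, 8.20 and 7.95 in PNY and 7.54, 8.14, 8.34 and 8.07 in SHAM. Its partner Kifap3 differed by 0.05 ± 0.21 and the related Kif3c by -0.02 ± 0.11.

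The ciliary and hedgehog kinesins also had no call. Kif6, a motor of ependymal cilia, read 6.37, 6.97, 6.42 and 6.44 in PNY and 6.83, 6.83, 6.65 and 6.96 in SHAM. It lay below SHAM except at 1 day, with a mean of -0.27 ± 0.30. Kif27, used in building motile cilia, read 6.12, 5.64, 6.02 and 6.06 in PNY and 6.19, 6.13, 6.42 and 6.02 in SHAM, a mean difference of -0.23 ± 0.25. Kif9, another motor of motile cilia, differed by 0.00 ± 0.15. Kif7, which scaffolds hedgehog signalling at the tip of the cilium, differed by 0.01 ± 0.22, and Kif24, which acts at the mother centriole, by 0.13 ± 0.06. The 14 ciliated cell markers had median differences of 0.05, -0.05, -0.36 and -0.06 in time order. Above SHAM were 10, 4, 1 and 6 of the 14 at these times. Their summed level ran from 11.43 to 11.65 in PNY and from 11.40 to 11.85 in SHAM. Their part in the Kif6 and Kif27 values was not tested.

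Among the other kinesins Kif21a, by its brightest probe set, was the only member below SHAM at all 4 time points. Kif21a, a motor that slows microtubule growth at the cell edge, read 8.32, 8.24, 8.10 and 7.89 in PNY and 8.52, 8.50, 8.28 and 8.36 in SHAM. The groups overlap by 1 PNY array, and the mean difference of -0.28 ± 0.13 had p = 0.0571 in a two-sided exact permutation test, whose smallest possible p is 0.0286. A second probe set of Kif21a gave a mean of -0.14 and was not below SHAM at 1 day (0.03). Another, at a low level of 3.52, gave 0.06, with 0.46 at 7 days. The limma estimate was -0.28 ± 0.11 (SE), which was not called after adjustment (adjusted p of 1).

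Kif21b, its relative in neurons and lymphocytes, gave the single kinesin past 1.5-fold at 1 day. It read 7.65, 8.31, 7.78 and 7.76 in PNY and 7.64, 7.71, 7.92 and 8.11 in SHAM. The 1-day PNY array was the highest and the SHAM array of 7 days the next, with a 7-day difference of -0.35. On the 1-day PNY array Rag1, the recombinase of developing lymphocytes, differed by 5.98. All the thymocyte markers were above SHAM there (7 of 7), with a median of 2.37. Their part in the Kif21b value was not tested. A dimmer probe set of Kif21b differed by -0.02 there.

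Kif26a and Kif26b, kinesin-like proteins with signalling roles in development, were lower at 6 hours than later in both surgeries. Their mean PNY minus SHAM differences were 0.04 ± 0.25 and 0.01 ± 0.31, with -0.30 and -0.45 at 7 days. Kif26a read 7.39, 8.31, 8.16 and 8.05 in PNY and 7.11, 8.28, 8.00 and 8.35 in SHAM. Kif26b read 6.85, 7.50, 7.80 and 7.45 in PNY and 6.67, 7.39, 7.60 and 7.90 in SHAM. In both genes the 2 arrays of 6 hours are the lowest of the 8. A comparison chosen after these values were seen, of 1 to 7 days with 6 hours by limma over both surgeries, put Kif26a 0.94 ± 0.13 (SE) higher at the later times (adjusted p = 0.00453). Kif26b was 0.85 ± 0.15 higher (adjusted p = 0.0118) and Kif3a 0.48 ± 0.12 (adjusted p = 0.0452). These 3 of the 37 kinesins are close to the share of all genes higher at the later times, 7.01%. No kinesin was lower, against 3.16%. None of the 3 was called without the SHAM array of 6 hours, and Kif26a alone was without the PNY array of 6 hours. Kif3a was also lost when the 1-day or 3-day array of either surgery, or the 7-day SHAM array, was left out, and when quantile normalization was repeated. The microtubule depolymeriser Kif2a differed between the surgeries by 0.08 ± 0.04, Kif12, a kinesin of kidney and liver epithelium, by -0.11 ± 0.11, and Kif28, at 2.57 to 2.86, by 0.05 ± 0.17.

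**Figure D4:**
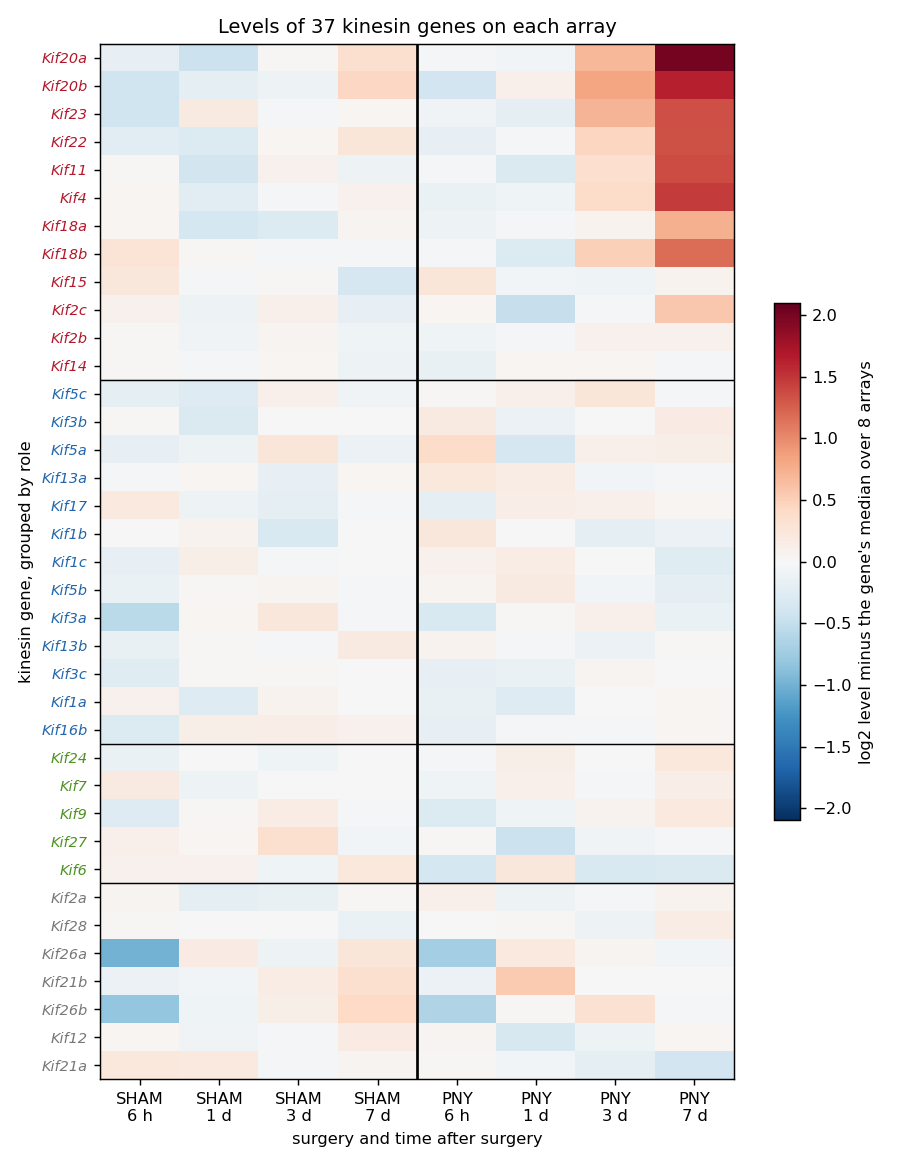
Log2 level of the 37 kinesin genes on each array, less the median of that gene over the 8 arrays, with SHAM on the left and PNY on the right in time order. Rows are grouped by role with mitotic genes at the top. The strongest red stands in the mitotic rows of the PNY array of 7 days, and the strongest blue in Kif26a and Kif26b at 6 hours in both surgeries.

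Of 25 genes that work with the mitotic kinesins on the spindle and in cytokinesis, 16 passed the rank product as higher in PNY (0.506% of all genes did) and 0 as lower, and 9 did not pass. This list was chosen with earlier results of these data known, and the study's own list of higher genes holds many of its members. The count is therefore not independent support, and the same holds for the proliferation markers below. The mean differences of the 25 partners ran from 0.02 to 1.08, overlapping those of the mitotic kinesins (-0.0020 to 0.72). The lists were not tested against each other. The median differences of the partners were 0.08, 0.18, 0.87 and 1.49 in time order, with 22 of 25 at least 1.5-fold higher at 7 days against 1.98% of all genes. The 4 with the largest mean differences were Ect2, which starts furrowing (1.08 ± 0.69), the checkpoint kinase Ttk (1.04 ± 0.73), Cep55 of abscission (1.01 ± 0.70) and the kinetochore protein Nuf2 (0.99 ± 0.70). Those 4 passed, as did 4 of the 11 proliferation markers, among them Mki67 (0.87 ± 0.83) and Top2a (0.92 ± 0.73). The proliferation markers had medians of 0.14, 0.24, 0.63 and 0.78, and a summed level from 12.17 to 13.00 in PNY and from 12.07 to 12.38 in SHAM.

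Of 25 transport partners (light chains, adaptors, dynein and dynactin subunits) 0 passed in either direction, and by limma 0 were under an unadjusted p of 0.05, counts close to the shares over all genes (0.506% and 2.17%). Their medians were 0.10, -0.04, 0.02 and -0.0012. The largest mean was 0.13 ± 0.11, for the light chain Klc3, followed by the mitochondrial GTPase Rhot2 with 0.11 ± 0.29, the dynein chain Dync1li2 with 0.10 ± 0.13 and the adaptor Spag9 with 0.08 ± 0.17. The tubulins, which make the track for both, had medians of 0.19, 0.29, 0.28 and 0.22, with 10 of 11 means above 0. None of the 11 passed. By limma 0 were under an unadjusted p of 0.05, against 2.17% of all genes. With time point as a block 5 were, against 5.9% of all genes, and 0 after adjustment. The largest were Tubb2b (0.50 ± 0.13), Tubb6 (0.37 ± 0.37), Tubb2a (0.33 ± 0.09) and Tubb5 (0.26 ± 0.23).

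Another 4 kinesins carry symbols outside the rule. Cenpe, a motor of the kinetochore, differed by -0.19, 0.44, 0.77 and 1.01 in time order, with a mean of 0.51 ± 0.52. Kifc1, which bundles spindle microtubules, differed by 0.40, 0.05, 0.20 and 1.36, with a mean of 0.50 ± 0.59. All 4 PNY arrays of Kifc1 lay above all 4 SHAM arrays, if narrowly, from 5.99 to 7.07 against 5.59 to 5.99 (two-sided exact permutation p = 0.0286, the smallest possible). Of all genes 0.857% were separated in this way. Kifc2 and Kifc3, which carry cargo, differed by -0.17, 0.01, 0.30 and -0.34 and by 0.38, -0.14, -0.16 and 0.17, with means of -0.05 ± 0.27 and 0.06 ± 0.26. None of the 4 passed the rank product. By limma 1 of them, Kifc1, was under an unadjusted p of 0.05, against 2.17% of all genes, and none after adjustment.

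**Figure D5:**
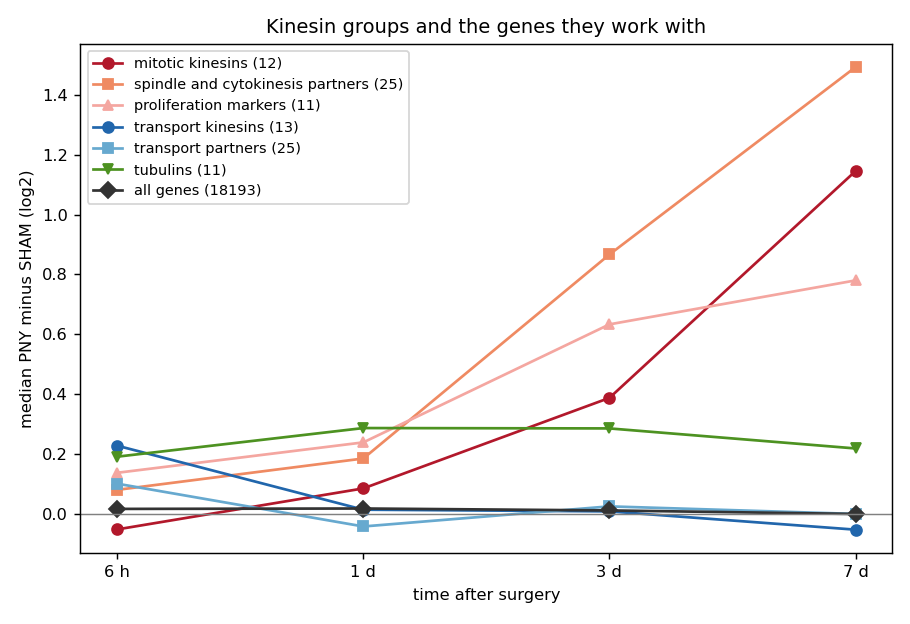
Median PNY minus SHAM difference (log2) at each time point for mitotic and transport kinesins, the genes they work with, proliferation markers, tubulins and all genes, with the number of genes in brackets. At 7 days the spindle partners lie at 1.49 and the mitotic kinesins at 1.15, while the transport kinesins, their partners and all genes lie near 0.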

How the data were processed

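Lung RNA of 8 pools of 8 mice was measured on 8 arrays, 4 PNY and 4 SHAM. The authors made the deposited log2 values with RMA (background correction, quantile normalization, summarization to 1 value per probe set); the version is not given in the sources used here. Of 45101 probe sets, all but the 64 controls were used, with no filter on level (45037 in each test). Genes were named from the 34945 probe sets with 1 symbol, and each gene is represented by its brightest. A probe set shared by Kif27 and another symbol was left out. No probe set with 1 symbol carried the names Kif4a, Kif19 or Kif25, and the chromokinesin Kif4 was analysed under that symbol.

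Following the study, time points served as replicates. Rank products were coded in Python 3.11.15 (numpy 2.4.6, pandas 2.3.3) over the 16 PNY and SHAM pairs, with 1000 permutations (100 for alternatives). limma 3.58.1 in R 4.3.3 was fitted to all probe sets, with Benjamini-Hochberg adjustment. Exact tests used the 70 splits of the arrays. The limma and exact p-values measure the spread between pooled arrays of different times, which the number of arrays limits. The rank product P comes from shuffling the values of each array over its probe sets. It sets a gene against the other probe sets and does not measure the spread between arrays. Both methods, rank products and limma, were tested on simulated data. Figures used matplotlib 3.10.9.

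The genes named were every mitotic kinesin, any kinesin called, for each other role the 4 brightest and the 4 with the largest mean difference, and 4 of each partner list by mean difference; others were named after their values were seen. Members, roles and lists were chosen with earlier results of these data known. Alternatives were rescaling, a filter at the median level, time point as a block, leaving out arrays or time points, averaging probe sets, other thresholds and another variance prior.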

Additional observations from a re-analysis of the deposited data

Results flagged for a closer look

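Among 60 groups of 4 arrays (30 kinesin genes in PNY and in SHAM), 5 held an array far from the other 3 by Dixon's criterion, where chance gives about 1 group in 20. Kif3b was at 7.73 on the SHAM array of 1 day, against 8.02 to 8.05 on the other SHAM arrays. Kif5a was at 4.92 on the SHAM array of 3 days, against 4.50 to 4.56. Kif6 was at 6.97 on the PNY array of 1 day, against 6.37 to 6.44. Kif18b was at 6.39 on the SHAM array of 6 hours, against 6.09 to 6.13. Kif28 was at 2.57 on the SHAM array of 7 days, against 2.70 to 2.73.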

How the results depend on the processing

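The 2 kinesins called higher by rank product stayed 2 with the arrays centred, with quantile normalization repeated, without a minimum fold change and with time point as a replicate block (2 called). Above the median level the count was 1 (Kif20a), since the filter removed the brightest probe set of Kif20b, with a mean of 5.39, before the test. The count was also 1 (Kif20a) with the mean of all probe sets of a gene, and 0 at a percentage of false positives under 0.05. It ranged from 0 to 3 when 1 array was left out, and was 0 without the pair of 3-day arrays and likewise 0 without the 7-day pair. At a fold change of 2 in place of 1.5, the counts higher were 0 at 1 day and 0 at 3 days. For the later times against 6 hours the count of 3 became 5 above the median level, 1 without both arrays of 3 days, and 0 to 3 with 1 array left out. The counts of kinesins lower by rank product (0) and called by limma (0) were the same under every alternative run. The median of the mitotic kinesins stayed above 0 throughout, from 0.09 to 0.54, and that of the transport kinesins lay between -0.04 and 0.06. Apart from that filter, the cause of lost calls was not tested. Signal near background limits Kif2b, Kif14 and Kif28.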
